A study of Mus musculus with 6 samples.

Results

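The 10 genes described here encode the core of the G1 cell cycle switch and its closest neuronal relative: the kinases Cdk6 and Cdk4, their activating D cyclins Ccnd1, Ccnd2 and Ccnd3, the inhibitors Cdkn1b (p27) and Cdkn2c (p18), the pocket proteins Rb1 and Rbl2 (p130), and Cdk5. They were taken by symbol from count tables of 35976 genes, and all 10 were found and passed the filter on low counts with 13159 genes in all. The set was drawn up with the comparison of sgEgfr with sgRosa in these same libraries already known, Cdk6 having had one of the smallest p-values, so the fold changes below are a description of the set and not a test of it.

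The 6 libraries compared were 3 labelled sgEgfr and 3 labelled sgRosa. Each was made from amygdala neurons of C57BL/6J males, their age not given in the sources used here. In the sgEgfr group an adeno-associated virus carried guides to cut Egfr, which encodes the epidermal growth factor receptor, and in the sgRosa group guides against the control locus Rosa26. In both groups Cas9 was driven in astrocytes by the GfaABC1D promoter, so the sequenced neurons were not the targeted cells. Expression ran for more than 2 weeks, and mice of both groups were then restrained in tubes for 7 days, fear conditioned for 1 day and given extinction sessions for 3 days, so no unstressed group enters the comparison. Neurons were enriched magnetically after papain digestion, and 5 ng of RNA went into each library. The labels do not say whether the libraries of a group are separate animals, so the spread behind each p-value may be technical.

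Total counts lay between 2520426 and 4849404 in sgEgfr libraries and between 2348897 and 10152812 in sgRosa libraries. Levels are given as CPM, read counts scaled to a common library size with TMM factors, and 3 counts in a library corresponded to 0.270 to 1.25 CPM, a floor that covers counting error only. Egfr itself had 6, 18 and 6 counts in the sgEgfr libraries and 1, 26 and 23 counts in the sgRosa libraries, and these neuron counts do not check the knockdown in astrocytes. Neuron markers were present in every library, with 10 markers summing to between 2359 and 4084 CPM in sgEgfr and between 1374 and 4077 CPM in sgRosa. Oligodendrocyte markers were far higher, at 22074 to 56252 CPM in sgEgfr and 23777 to 68997 CPM in sgRosa for 8 markers, so the libraries also held much RNA of other cells. Astrocyte markers summed to 328 to 1051 CPM in sgEgfr and 463 to 921 CPM in sgRosa for 7 markers. RNA of the targeted cell type was therefore sequenced too. Choroid plexus markers set 2 libraries apart, with 2220 CPM in sgEgfr replicate 1 and 3445 CPM in sgRosa replicate 3 against at most 43.5 CPM in the other 4. Without these 2 libraries the log2 fold change was 1.33 for Cdk6, 0.57 for Cdkn1b and -0.33 for Cdk4, against 1.38, 0.84 and -0.29 with them. In such bulk samples fewer cells of a type and less RNA per cell cannot be told apart.

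As background, D cyclins bind CDK4 and CDK6 when growth factor signals arrive, and the active kinases phosphorylate RB1 and its relatives, which then release E2F transcription factors that switch on genes for DNA replication. INK4 proteins such as p18 bind the kinases and keep cyclins away, and p27 binds the assembled complexes. Mature neurons have left the cell cycle. CDK5 resembles these kinases in sequence, but it is activated by p35 and p39 in neurons and acts on the cytoskeleton and synapses.

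Cdk6 had the largest fold change of the 10 genes. It had 65.3, 73.9 and 54.6 CPM in the sgEgfr libraries, against 26.4, 25.1 and 23.2 CPM in the sgRosa libraries. Every sgEgfr library lay above every sgRosa library, and the gap between the groups was wider than the range within either. The means were 64.6 ± 9.67 CPM in sgEgfr and 24.9 ± 1.61 CPM in sgRosa (SD, n = 3 each). The log2 fold change was 1.38 (SE 0.22, 95% interval 0.87 to 1.88). By p it ranked 2 of 13159 genes, yet in edgeR's quasi-likelihood test its adjusted p was 0.820, and no gene passed 0.05 in either direction (0.00% of genes tested higher and 0.00% lower, although 3.05% were higher and 2.72% lower at an unadjusted p under 0.05). DESeq2 on the same counts called Cdk6 (adjusted p = 0.000958, with 0.000958 to 1.00 over all alternatives) and no other member, and it called 0.385% of genes higher and 0.0249% lower among the 8045 with a defined adjusted p. The call therefore depends on the test. The direction did not: over 18 alternatives the log2 fold change of Cdk6 lay between 1.13 and 1.51, and it was at least 1.29 without any single library.

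**Figure D1:**
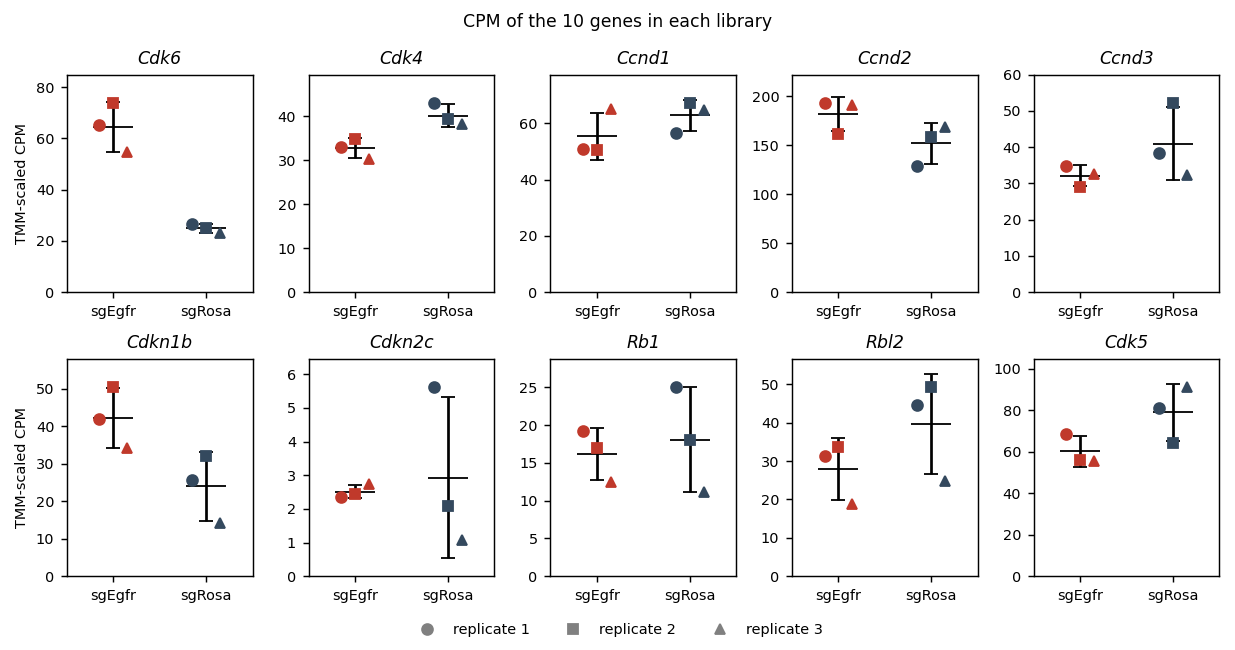
TMM-scaled CPM (vertical axes, each from 0) of the 10 genes in 3 sgEgfr libraries (red, left) and 3 sgRosa libraries (dark, right), with marker shape for the replicate number and black bars for the mean and SD. Cdk6 and Cdkn1b were higher in all sgEgfr than in all sgRosa libraries, Cdk4 was lower, and the groups of the other 7 genes overlapped.

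Cdk4, the other kinase that D cyclins activate, had 33.1, 34.8 and 30.4 CPM in the sgEgfr libraries, against 43.0, 39.3 and 38.2 CPM in the sgRosa libraries. The groups did not overlap here either, but in the opposite direction. The difference was small, with a log2 fold change of -0.29 (SE 0.20, 95% interval -0.75 to 0.17), and it did not pass (edgeR adjusted p = 0.831). Of the set, 2 of 10 genes (Cdk6 and Cdkn1b) had separate groups with sgEgfr higher, where 5.80% of all tested genes did, and 1 of 10 (Cdk4) had separate groups with sgEgfr lower, where 7.60% did. These counts come from the contrast that the set was chosen on.

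Both kinase genes are on the plus strand in mm10. Cdk6 (ENSMUSG00000040274.11) spans 3341485 to 3531008 on chromosome 5, with 13989 bases of exons, the longest of the set. Cdk4 (ENSMUSG00000006728.12) spans 127063534 to 127067920 on chromosome 10, with 3249 bases of exons. Because levels of different genes can be compared only per length, CPM was divided by exon length in kilobases to give RPKM. On that scale Cdk6 made up 31.4%, 33.0% and 29.4% of the summed Cdk4 and Cdk6 level in the sgEgfr libraries, against 12.5%, 12.9% and 12.4% in the sgRosa libraries. The shares within a group lay within a few percentage points of each other. The ratio of Cdk6 to Cdk4 in RPKM was 0.456 ± 0.0380 in sgEgfr and 0.144 ± 0.00367 in sgRosa (SD, n = 3 each), while the summed level of both overlapped between groups, at 14.7 ± 1.38 RPKM in sgEgfr and 14.1 ± 0.892 RPKM in sgRosa. Per length, Cdk4 was the more abundant kinase transcript in all 6 libraries.

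The promoters of Cdk6, Cdk4 and Cdkn1b are shown because these 3 genes had separate groups, so they were picked, like the motifs searched in them, after the values were seen. Each sequence is from RefSeq (GRCm38.p6, plus strand, 300 bases: 250 before and 50 after the start), with capitals marking matches to the motifs searched on both strands. The table of promoters matched 6 of the 10 genes.
Cdk6, chr5:3343643-3343942: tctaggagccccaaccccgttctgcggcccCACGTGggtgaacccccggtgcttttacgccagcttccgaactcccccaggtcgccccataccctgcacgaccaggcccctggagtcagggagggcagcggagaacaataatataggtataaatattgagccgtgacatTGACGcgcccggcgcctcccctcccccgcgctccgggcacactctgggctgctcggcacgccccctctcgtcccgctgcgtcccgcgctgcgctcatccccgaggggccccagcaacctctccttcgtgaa
Cdk4, chr10:127063285-127063584: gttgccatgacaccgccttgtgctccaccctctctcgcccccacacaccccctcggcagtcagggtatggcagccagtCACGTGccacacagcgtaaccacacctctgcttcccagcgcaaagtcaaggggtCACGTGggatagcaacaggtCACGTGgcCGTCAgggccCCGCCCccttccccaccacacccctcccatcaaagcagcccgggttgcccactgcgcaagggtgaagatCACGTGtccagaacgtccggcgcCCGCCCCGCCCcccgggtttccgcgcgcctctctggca
Cdkn1b, chr6:134920151-134920450: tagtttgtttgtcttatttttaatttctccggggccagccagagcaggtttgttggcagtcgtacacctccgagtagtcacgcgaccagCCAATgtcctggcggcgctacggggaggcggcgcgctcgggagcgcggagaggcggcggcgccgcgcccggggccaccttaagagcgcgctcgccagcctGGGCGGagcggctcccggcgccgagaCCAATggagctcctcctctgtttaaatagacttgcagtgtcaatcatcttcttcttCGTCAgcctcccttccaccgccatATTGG

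The 3 promoters shared few of the motifs searched. CACGTG, the E-box bound by MYC family factors, occurred 1 time in the Cdk6 promoter, 4 times in the Cdk4 promoter and not in the Cdkn1b window, and 7.15% of 32851 promoters of the same length held it. GGGCGG, the GC box, matched 3 times in Cdk4, where a pair of matches overlaps by a base, 1 time in Cdkn1b and not in Cdk6 (35.7% of promoters). CCAAT matched 3 times in Cdkn1b and in neither kinase gene (37.4%). TGACG, the core of the cyclic AMP response element TGACGTCA, matched 1 time in each of the 3 (20.8%), and the whole element in none of them (1.79%). The E2F sites TTTGGCGC (0.514%) and TTTCGCGC (0.323%), the cell cycle element TTTGAA (17.9%), the forkhead site TGTTTAC (3.65%) and the AP-1 site TGANTCA (7.81%) had no match in these windows. A match is a string of letters and not a measured binding site.

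The D cyclins supply the regulatory subunits. Ccnd2 was the most abundant of them per length and had 193, 162 and 191 CPM in the sgEgfr libraries, against 129, 158 and 169 CPM in the sgRosa libraries. The groups overlapped, and the log2 fold change was 0.26 (SE 0.23, 95% interval -0.28 to 0.80). Ccnd1, the cyclin most often linked to mitogen signals, had 50.8, 50.4 and 65.1 CPM in the sgEgfr libraries, against 56.5, 67.2 and 64.7 CPM in the sgRosa libraries, with a log2 fold change of -0.18 (SE 0.22, 95% interval -0.69 to 0.32). Ccnd3 had 34.8, 29.0 and 32.7 CPM in the sgEgfr libraries, against 38.5, 52.2 and 32.3 CPM in the sgRosa libraries, with a log2 fold change of -0.34 (SE 0.25, 95% interval -0.92 to 0.23). None of the D cyclin genes passed, and each interval spans 0, so differences up to the stated bounds in either direction were not excluded by these libraries.

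The summed D cyclin level overlapped between the groups, while the shares of Ccnd2 and Ccnd1 in it did not. The sum was 34.8 ± 3.36 RPKM in sgEgfr and 34.2 ± 3.65 RPKM in sgRosa (SD, n = 3 each). Ccnd2 made up 58.2%, 55.1% and 53.6% of it in the sgEgfr libraries, against 45.4%, 45.4% and 50.7% in the sgRosa libraries. Ccnd1 made up 30.6%, 34.3% and 36.5% in the sgEgfr libraries, against 39.9%, 38.5% and 38.9% in the sgRosa libraries. Ccnd2 had the higher and Ccnd1 the lower share in every sgEgfr library, while the shares of Ccnd3 overlapped, at 10.6 ± 0.691% in sgEgfr and 13.7 ± 2.93% in sgRosa. Shares are parts of the same sum, so the higher Ccnd2 and the lower Ccnd1 share are not separate observations. The nearest values of the groups were close for both shares, and with the longest transcript as length they were separate too.

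**Figure D2:**
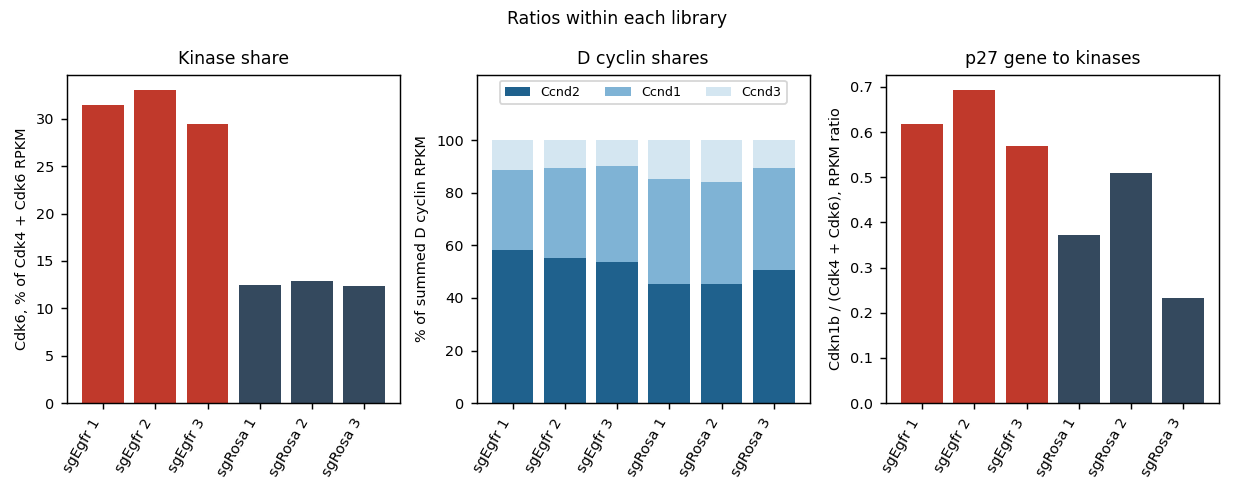
Within-library shares and ratios from RPKM, with sgEgfr libraries left of sgRosa libraries on each horizontal axis. The left panel gives Cdk6 as a percentage of summed Cdk4 and Cdk6 (29.4% to 33.0% in sgEgfr, 12.4% to 12.9% in sgRosa), the middle panel the percentage of each D cyclin, and the right panel the ratio of Cdkn1b to summed Cdk4 and Cdk6.

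Cdkn1b, whose product p27 inhibits cyclin and kinase complexes and helps keep cells out of the cycle, was the second gene with higher values in all sgEgfr libraries. It had 41.8, 50.4 and 34.3 CPM in the sgEgfr libraries, against 25.6, 32.2 and 14.1 CPM in the sgRosa libraries. The lowest sgEgfr value was just above the highest sgRosa value. The means were 42.2 ± 8.08 CPM in sgEgfr and 24.0 ± 9.12 CPM in sgRosa (SD, n = 3 each), and the log2 fold change was 0.84 (SE 0.34, 95% interval 0.06 to 1.62; edgeR adjusted p = 0.820, not passing). Its value leaned on sgRosa replicate 3: without that library the log2 fold change was 0.55, and without sgRosa replicate 2 it was 1.12. With each library's mean neuron marker level as a covariate it was 1.40. Cdkn1b lies on chromosome 6 (134920401 to 134925513, plus strand, ENSMUSG00000003031.14). Relative to the summed kinases its ratio in RPKM was 0.619, 0.693 and 0.568 in the sgEgfr libraries, against 0.372, 0.509 and 0.232 in the sgRosa libraries, and these groups did not overlap.

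Cdkn2c, which encodes the INK4 inhibitor p18, was barely covered. It had 11, 11 and 7 counts in the sgEgfr libraries, against 20, 5 and 12 counts in the sgRosa libraries. On the CPM scale that is 2.35, 2.45 and 2.73 in sgEgfr, against 5.62, 2.09 and 1.08 in sgRosa, so the sgEgfr libraries fell inside the sgRosa range. The log2 fold change of -0.16 had an interval of -1.72 to 1.39, and it was 0.82 without sgRosa replicate 1, so no direction can be read for this gene.

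The pocket proteins are the substrates that the kinases inactivate. Rb1, the retinoblastoma gene, had 19.2, 17.0 and 12.5 CPM in the sgEgfr libraries, against 25.0, 18.0 and 11.2 CPM in the sgRosa libraries. The ranges overlapped, the log2 fold change was -0.13 (SE 0.35, 95% interval -0.95 to 0.68), and without sgRosa replicate 1 it was 0.22. Rbl2, which encodes p130, the pocket protein typical of resting cells, had 31.3, 33.7 and 18.7 CPM in the sgEgfr libraries, against 44.7, 49.3 and 24.9 CPM in the sgRosa libraries, with a log2 fold change of -0.49 (SE 0.34, 95% interval -1.28 to 0.31). In both groups replicate 3 was the lowest for both pocket protein genes. Those libraries also had the lowest oligodendrocyte marker sums of their groups, at 22074 CPM in sgEgfr replicate 3 and 23777 CPM in sgRosa replicate 3. With the mean oligodendrocyte marker level as a covariate the log2 fold changes were 0.26 for Rb1 and -0.11 for Rbl2, and with the neuron marker level they were 0.36 and 0.05, so the sign for Rb1 turned under both and that for Rbl2 under the neuron covariate. The part of cell makeup in these values was not tested.

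Cdk5 had the highest level per length of the set. It had 68.7, 56.2 and 55.7 CPM in the sgEgfr libraries, against 81.3, 64.3 and 91.2 CPM in the sgRosa libraries. sgEgfr replicate 1 lay above sgRosa replicate 2, so the groups overlapped, and the log2 fold change was -0.39 (SE 0.23, 95% interval -0.93 to 0.14; edgeR adjusted p = 0.825). In RPKM it averaged 27.8 ± 3.38 in sgEgfr and 36.4 ± 6.27 in sgRosa (SD, n = 3 each).

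**Figure D3:**
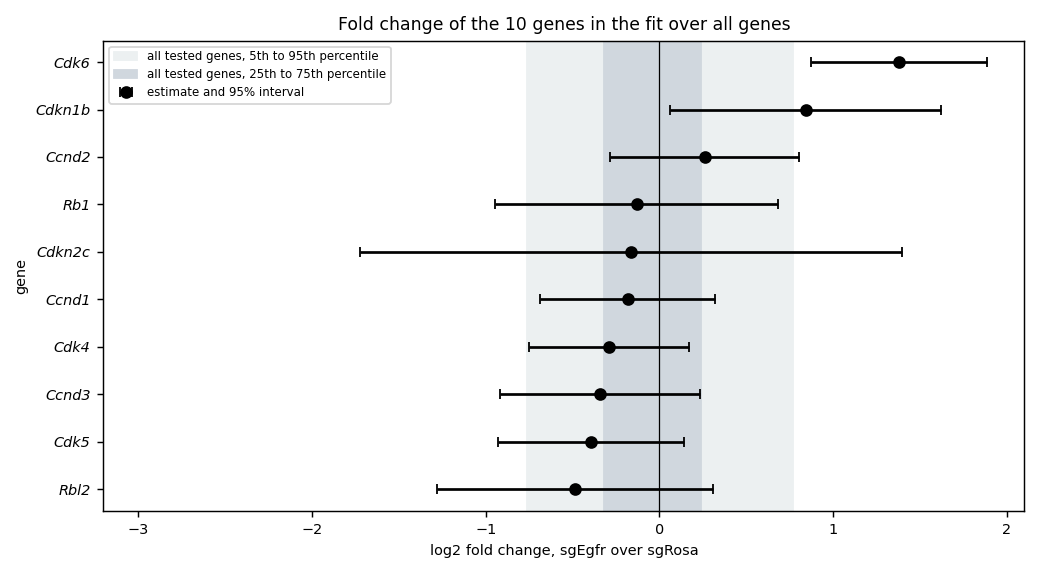
Log2 fold change of sgEgfr over sgRosa (horizontal axis) for each gene, with 95% intervals from edgeR's fit over all genes, on bands for the middle 50% and 90% of all tested genes. The intervals of Cdk6 and Cdkn1b lie above 0 and those of the other 8 genes span it, and no gene passed after adjustment over all genes.

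Taking the set as a whole, 3 of 10 genes had a positive log2 fold change and 7 a negative one, with a median of -0.17. Over all 13159 tested genes 6086 were positive and 7073 negative, with a median of -0.04. The values ranged from -0.49 (Rbl2) to 1.38 (Cdk6), and only Cdk6 and Cdkn1b lay outside the middle 90% of tested genes, which spanned -0.76 to 0.77.

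The order of the levels per length, averaged over 6 libraries, was Cdk5 (32.1 RPKM), Ccnd2 (17.7), Ccnd1 (12.6), Cdk4 (11.2), Cdkn1b (7.26), Rbl2 (4.47), Ccnd3 (4.17), Cdk6 (3.20), Rb1 (2.85) and Cdkn2c (1.01 RPKM). Between neighbours in this order, the range over libraries was separate only for Cdk5 and Ccnd2. Ccnd2 was above Ccnd1 in 6 of 6 libraries although their ranges touched, and Ccnd1 above Cdk4 in 4 of 6. Rbl2 and Ccnd3 could not be ordered beyond their spread. Cdk6 averaged 4.61 ± 0.691 RPKM in sgEgfr, with a mean above those of Rbl2, Ccnd3 and Rb1, and 1.78 ± 0.115 RPKM in sgRosa, with only Cdkn2c lower (SD, n = 3 each). Lengths came from an annotation that may not be the one used for counting, and with the longest transcript in place of all exons Cdk4 moved above Ccnd1, Ccnd3 moved above Cdkn1b, and the ranges of Cdk5 and Ccnd2 overlapped. On that length Cdk6 lay above Rb1 but below Rbl2 and Ccnd3 in sgEgfr, at 5.60 RPKM against 5.67 for Rbl2 and 8.34 for Ccnd3, and again only Cdkn2c was lower in sgRosa.

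**Figure D4:**
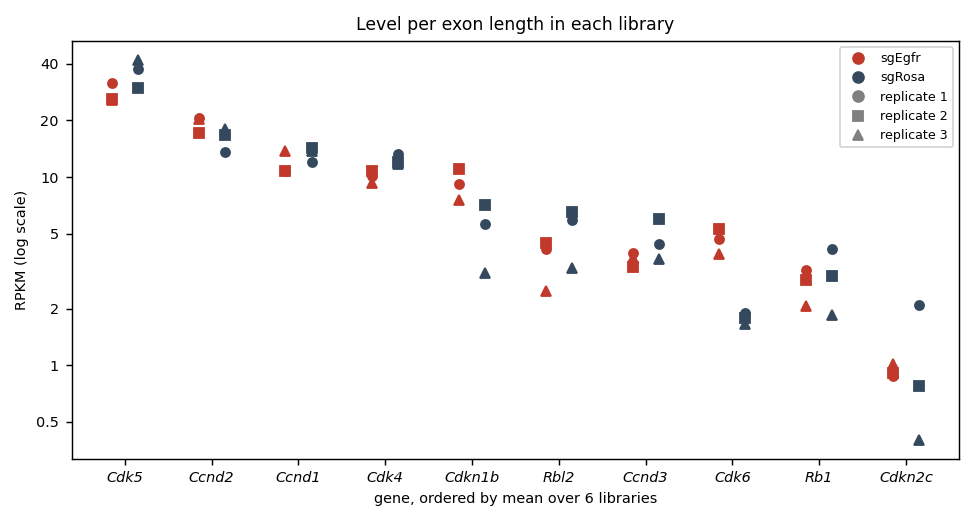
RPKM (vertical axis, log scale) of each gene in 3 sgEgfr libraries (red) and 3 sgRosa libraries (dark), ordered by the mean over 6 libraries, with marker shape for the replicate number. Cdk5 was highest at 25.7 to 42.1 RPKM, and the Cdk6 points split by group, at 3.90 to 5.28 RPKM in sgEgfr and 1.66 to 1.89 RPKM in sgRosa.

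Several exons of these genes lie opposite exons of a neighbour. Whether reads were counted by strand is not stated in the sources, so reads of such pairs may not have been told apart. The neighbours were picked by position, after the values of the set were seen. For Cdk4 the overlap with Tspan31 covers 641 bases, 19.7% of its exons. Tspan31 was itself lower in all sgEgfr libraries, at 47.4 ± 5.38 CPM in sgEgfr and 73.2 ± 17.8 CPM in sgRosa (SD, n = 3 each; log2 fold change -0.62, edgeR adjusted p = 0.820), and its part in the Cdk4 values was not tested. For Ccnd1 the overlap with Oraov1 covers 1100 bases, 23.4% of its exons, and Oraov1 had 29.4 ± 4.98 CPM in sgEgfr and 26.3 ± 4.04 CPM in sgRosa. Rbl2 overlaps the abundant gene Aktip over 693 bases, and Aktip had 694 ± 128 CPM in sgEgfr and 642 ± 140 CPM in sgRosa. Rbl2 also overlaps Gm45464, which was not analysed here, over 892 bases, or 11.8% of its exons. Ccnd2 overlaps Gm43126, also not analysed here, over 372 bases and 9330179D12Rik over 368 bases. Ccnd3 overlaps Bysl over 361 bases. Rb1 overlaps Rcbtb2 over 488 bases and Lpar6 over 408 bases. Rcbtb2 had 14.8 ± 3.43 CPM in sgEgfr and 13.4 ± 0.739 CPM in sgRosa (SD, n = 3 each), while Lpar6 had 22.8, 21.6 and 14.0 CPM in the sgEgfr libraries, against 85.8, 41.4 and 13.5 CPM in the sgRosa libraries. sgRosa replicate 1, the library with the highest Rb1 value, was the highest for Lpar6 and the lowest of the sgRosa libraries for Rcbtb2. Cdk6 overlaps the antisense gene Gm17590, which was not analysed here, over 368 bases, or 2.63% of its exons. Cdkn1b, Cdkn2c and Cdk5 overlap no annotated exon of another gene.

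Fold changes differed with gene length. The 1366 tested genes with at least 10000 bases of exons, a class that includes Cdk6, had a median log2 fold change of 0.16 and were positive in 68.3%, whereas the 1429 genes under 2000 bases had a median of -0.28 and were positive in 26.4%. With each library's trend on exon length removed, the log2 fold change was 1.13 for Cdk6, 0.86 for Cdkn1b and -0.22 for Cdk4. For Ccnd2, Ccnd1 and Ccnd3 it was 0.13, -0.20 and -0.44, against 0.26, -0.18 and -0.34 with the trend kept. The part of length in the set's values was not tested further. In the long class 10 of 1366 genes, Cdk6 itself included, had a log2 fold change at least as high as that of Cdk6. Among genes under 2000 bases 23 of 1429 did.

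Cell makeup differed between libraries too. Microglia markers summed to 274, 410 and 28.8 CPM in the sgEgfr libraries, against 55.7, 115 and 137 CPM in the sgRosa libraries, and all 7 markers had positive log2 fold changes (median 1.36). sgEgfr replicate 3 had the lowest microglia sum of all 6 libraries. Its Cdk6 level, 54.6 CPM, was the lowest of the sgEgfr libraries and above every sgRosa library. No microglia covariate was fitted. Lymphocyte markers, listed because dividing lymphocytes rely on CDK6, summed to at most 13.8 CPM over 10 markers in sgEgfr and 11.0 CPM in sgRosa, and 7 of the 10 were at 0 in at least 1 library. Neuroblast markers were the list whose sums did not overlap, at 400.1 to 421 CPM in sgEgfr and 129 to 391 CPM in sgRosa for 5 markers, nearly all of it from Sox11, and the neuroblast gene Dlx2 was at 1.25 CPM or less in every library. Red blood cell genes were positive in 5 of 5 (median 1.78). Neuron markers had positive log2 fold changes in 10 of 10 (median 0.52), oligodendrocyte markers negative ones in 8 of 8 (median -0.83), and OPC, astrocyte, endothelial and ependymal medians were -0.01, -0.13, -0.29 and -0.93. With neuron or oligodendrocyte markers as a covariate the log2 fold change of Cdk6 was 1.51 or 1.48. The part of the other cell types in the values of the set was not tested.

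Profiles over the 6 libraries were compared with that of Cdk6 by the root mean square difference of centred log2 CPM. Genes named Gm with a number, or with names ending in Rik, were left out. The closest genes were found among 9928 others with a mean of at least 3 log2 CPM. They were Nrip1, a nuclear receptor corepressor (0.231), Kmt2d, a histone H3K4 methyltransferase (0.231), Dennd5b (0.264), Ptprc, the leukocyte gene for CD45 (0.280), and Nr2f2, a COUP-TF nuclear receptor (0.286). Cdk6 split by group in these same libraries, so a group difference in the genes closest to it follows from the search. It is not a separate finding. Ptprc had 14.1, 24.5 and 10.1 CPM in the sgEgfr libraries, against 5.06, 6.68 and 4.77 CPM in the sgRosa libraries. Within the set Cdkn1b was the closest to Cdk6, at place 91 with a difference of 0.393, and Ccnd2 came next at place 1219.

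Beyond the set, 96 other genes of the cell cycle and of the CDK family were listed by role, and 80 of them passed the filter. By edgeR none passed in either direction (smallest adjusted p = 0.820). Of the 80, 45 had a positive and 35 a negative log2 fold change (median 0.08), beside 6086 and 7073 of all 13159 tested genes. At an unadjusted edgeR p under 0.05, 4 were higher and 0 lower, beside 3.05% higher and 2.72% lower over all tested genes. Separate groups were found for 6 with sgEgfr higher and 6 with sgEgfr lower, beside 5.80% and 7.60% over all tested genes. DESeq2 called 1 of them higher, Gsk3b, beside 0.385% of all genes with a defined adjusted p.

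Of 9 tested genes for E2F factors, their DP partners and the pocket protein p107, 8 had positive log2 fold changes (median 0.46), and none passed. E2f2, an activating E2F, had 47, 52 and 12 counts in the sgEgfr libraries, against 7, 6 and 34 counts in the sgRosa libraries, of which the last is the deepest. In CPM its groups were separate, with at least 4.68 in sgEgfr and at most 3.06 in sgRosa, and the log2 fold change was 1.78 (SE 0.45). E2f6 was at 0.56 and E2f4 at 0.34, both repressor-type members of the family.

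The inhibitors outside the set gave no common direction. Cdkn1a, the p53-induced inhibitor p21, averaged 103 ± 39.3 CPM in sgEgfr and 54.8 ± 13.1 CPM in sgRosa (SD, n = 3 each), with a log2 fold change of 0.92 (SE 0.34) and overlapping groups. The INK4 genes Cdkn2b and Cdkn2d were at -0.44 and -0.18. Cdkn2a, the INK4 gene linked to senescence and picked for its low counts, had at most 2 counts in any library.

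No gene of DNA replication or division passed. Of 12 tested replication and mitosis genes 4 had positive and 8 negative log2 fold changes (median -0.19). Pcna, the replication clamp, averaged 22.5 ± 2.53 CPM in sgEgfr and 29.7 ± 3.78 CPM in sgRosa, and Mcm7, a subunit of the replicative helicase, 9.92 ± 1.59 CPM in sgEgfr and 14.5 ± 2.28 CPM in sgRosa (SD, n = 3 each). Both had separate groups with sgEgfr lower. Mcm4 was at -0.56. Some transcripts of mitosis were scarce, as in 4 examples chosen after their counts were seen. Cdk1 had at most 7 counts in any library, Ccnb1 at most 5, Aurkb at most 4 and Bub1 at most 3, so differences in these 4 genes were not detectable at this depth. Of the division genes that were tested, the proliferation marker Mki67 was at 0.79 (SE 0.64) and the kinetochore gene Cenpf at -0.21 (SE 0.55), with overlapping groups for both. Among the 6 tested later kinases and cyclins Wee1 was at 0.45, Ccne2 at 0.70 and Cdc25b at -0.50, with overlapping groups for each.

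Upstream and turnover genes included the largest values of these lists after E2f2. Gsk3b, the kinase that marks cyclin D1 for degradation, had 1076, 709 and 1004 CPM in the sgEgfr libraries, against 393, 464 and 239 CPM in the sgRosa libraries. The groups were separate, with a log2 fold change of 1.35 (SE 0.36; edgeR adjusted p = 0.820, DESeq2 adjusted p = 0.0418, 0.0418 to 1.00 over all alternatives). Of the 12 turnover genes 6 were positive and 6 negative (median 0.01), with Rbx1, a subunit of cullin ubiquitin ligases, at -0.50. Of 7 tested transcription factors 6 were positive (median 0.46). The FOXO factors, which activate Cdkn1b transcription in other settings, were among them: Foxo1 averaged 39.3 ± 9.49 CPM in sgEgfr and 26.0 ± 3.24 CPM in sgRosa, and Foxo3 100.1 ± 4.99 CPM in sgEgfr and 69.0 ± 18.7 CPM in sgRosa (SD, n = 3 each), both with separate groups and neither passing. Foxo4 was at 1.01 with overlapping groups.

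The partners of CDK5 and of CDK4/6 complexes gave mixed values. Of 7 genes for CDK5 activators and binding proteins 3 were positive and 4 negative (median -0.16). The activator genes Cdk5r1 (p35) and Cdk5r2 (p39), given here beside the genes named by p because they activate the kinase, were at 0.71 (SE 0.54) and 0.31 (SE 0.27). Cdk5rap3 averaged 40.6 ± 4.23 CPM in sgEgfr and 54.4 ± 4.14 CPM in sgRosa (SD, n = 3 each), with separate groups, while Cdk5rap2 was at -0.63 and Cables1 at 0.51. In the CDK-activating kinase, which phosphorylates the T-loop of CDK4 and CDK6, Mnat1 was at -0.46, Ccnh at 0.10 and Cdk7 at 0.09. The MuvB genes, whose products join p130 in the DREAM repressor, had 1 positive and 3 negative values among 4 tested, with Lin52 at -0.46, Rbbp4 at -0.44 and Lin54 at 0.51. Of 16 other CDK family kinases 11 were positive (median 0.17), with Cdk12 at 0.55 and Cdk14 at 0.71.

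**Figure D5:**
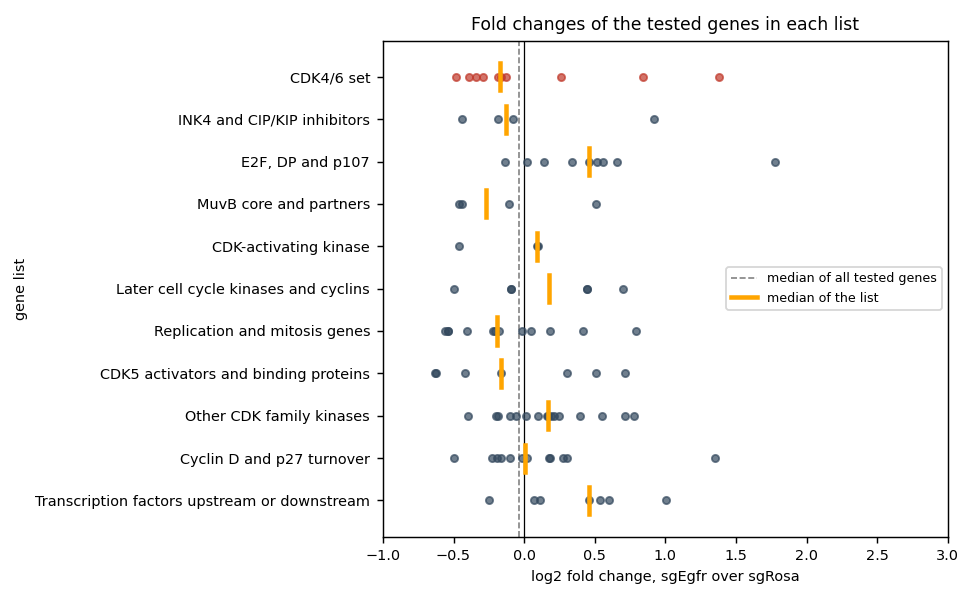
Log2 fold change of sgEgfr over sgRosa (horizontal axis) for each tested gene (points) of the 10-gene set in red and of 10 lists by role in dark, with orange bars at list medians and a dashed line at the median of all tested genes. E2f2 (1.78), Cdk6 (1.38) and Gsk3b (1.35) lie farthest to the right, and none of these genes passed in edgeR.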

How the data were processed

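The deposited tables held raw read counts per gene, and the authors applied no normalization to them. One table per library was used. The 6 matching columns of the table of the whole series were identical, and its 3 other columns fitted no label and were left out. The submitters' processing notes name STAR 2.7.5c, featureCounts 2.0.1, fastp 0.23.2, MultiQC 1.11, FastQC 0.11.9 and edgeR 3.42.4, and the build mm10. Every row named a gene.

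Genes were filtered with filterByExpr (minimum count 10, minimum total 15), scaled by TMM and tested with edgeR 4.0.16's quasi-likelihood test (robust, the version's default method, R 4.3.3), group as the only term, with Benjamini-Hochberg adjustment over 13159 genes and a threshold of 0.05. An SE is the log2 fold change divided by the root of its F statistic. The biological coefficient of variation over all genes was 0.355. Libraries of a group differed by more than sampling noise (lowest chi-square per degree of freedom 10.4). Positions and lengths are from GENCODE (GRCm38, the assembly of mm10). Log2 CPM used a prior count of 2. The code was tested on simulated data.

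Members and lists were chosen with earlier results of these data known. Named were all 10 members, up to 3 genes per list with the smallest p, and the 5 genes closest to Cdk6; other names were chosen after their values were seen, and 1 gene that the rule names is not reported here. Alternatives were RLE scaling, scaling by library size alone, no filter, a filter of 1 CPM in 3 libraries with a mean count of 20, DESeq2 1.42.0, limma-voom with quality weights (limma 3.58.1), a replicate block, each library left out, both libraries with choroid plexus RNA left out, and neuron or oligodendrocyte marker means as covariates. Removal of the length trend (lowess span 0.3, lengths for 95.6% of genes) and edgeR's newer quasi-likelihood method were chosen after seeing the data.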

Additional observations from a re-analysis of the deposited data

How the results depend on the processing

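Across 18 alternatives Cdk6, Cdk4, Ccnd1, Ccnd2, Ccnd3, Cdkn1b and Cdk5 kept their direction. DESeq2 gave 31 higher and 2 lower genes over all genes and 1 member (Cdk6, log2 fold change 1.40), against 0 by edgeR. With no filter 1 gene was higher (Slitrk2). The other 16 alternatives called 0 genes; at an unadjusted p under 0.05 there were 759 by edgeR, 811 by its newer method, 1980 by limma-voom and 2676 without sgRosa replicate 3. With each library left out in turn the members' median lay between -0.31 and -0.02. That median was 0.0806 with the neuron covariate and 0.0153 with the oligodendrocyte covariate. Cdkn2c turned to 0.17 by limma-voom, 0.68 and 0.52 with the neuron and oligodendrocyte covariates and 0.16 with the length trend removed, and ranged from -0.67 to 0.82 over the left-out libraries; 2 alternatives, the stricter filter and the one without the choroid plexus libraries, gave it no value. Rb1 turned to 0.36 and 0.26 with these covariates and ranged from -0.41 to 0.22. Rbl2 turned to 0.0482 with the neuron covariate. The causes were not tested. With the longest transcript the ratio of Cdk6 to Cdk4 was 0.350 in sgEgfr and 0.111 in sgRosa. Same-numbered libraries correlated at -0.03, 0.48 and 0.28 in their deviations from group means. sgEgfr replicates 2 and 3 correlated best with their same-numbered sgRosa libraries, and sgEgfr replicate 1 with sgRosa replicate 3. The numbers were not taken as pairs, but these values do not settle whether they are. The replicate block gave 0 calls and 1.36 for Cdk6. It gave 1258 genes at an unadjusted edgeR p under 0.05, and the SE of Cdkn1b was 0.24 with it and 0.34 without it. Cdkn2c had 5 to 20 counts in a library, with 20 in sgRosa replicate 1 and 12 in the deepest library, sgRosa replicate 3. The cause of its spread was not tested.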

Other observations

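The balance between D cyclins and their kinases overlapped between the groups. The ratio of summed D cyclin to summed Cdk4 and Cdk6 levels in RPKM was 2.38, 1.95 and 2.86 in the sgEgfr libraries, against 1.99, 2.67 and 2.64 in the sgRosa libraries. The ratio of Rbl2 to Rb1 overlapped as well, at 1.36 ± 0.200 in sgEgfr and 1.79 ± 0.381 in sgRosa (SD, n = 3 each). The ratio of Cdk5 to summed Cdk4 and Cdk6 was 2.13, 1.62 and 1.94 in the sgEgfr libraries, against 2.48, 2.14 and 3.14 in the sgRosa libraries, values that were separate by a narrow margin and overlapped when the longest transcript was used as length.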
